A study of Homo sapiens with 24 samples.

Results

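Messenger RNAs of the microRNA pathway were followed in HepG2 cells, an established human liver cancer line, before and after transcription was blocked. The 10 genes were listed by name: the Argonautes AGO1, AGO2 and AGO3, the GW182 proteins TNRC6A, TNRC6B and TNRC6C, and the processing and export factors DROSHA, DGCR8, XPO5 and DICER1. All 10 were among the 13136 genes, of 58676 gene rows, that had at least 1 CPM (counts-per-million of the library's gene reads) in at least 2 libraries. Cells received the AllStars negative control siRNA (siControl) or an siRNA for one of the IGF2BP genes (siIGF2BP1, siIGF2BP2, siIGF2BP3), were split into plates for the time points, and then had actinomycin D for 0, 3 or 6 h before collection. Every group, the 0 h groups included, was thus transfected, and the 24 libraries form 12 groups of 2 replicates. The study used these libraries to ask whether loss of each IGF2BP protein, a family of RNA-binding proteins that read methylated mRNA, altered transcript lifetime. All cells were of 1 line and each knockdown left some target mRNA. The study calls the replicates independent, without saying whether they were separate transfections, so p-values measure the spread between these libraries.

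MicroRNAs are cut from long primary transcripts in the nucleus by the Microprocessor, formed by the nuclease DROSHA and its RNA-binding partner DGCR8. Exportin-5, the product of XPO5, carries the hairpin to the cytoplasm, where DICER1 trims it to the mature duplex. An Argonaute protein keeps a single strand of the duplex as its guide, and a GW182 protein bound to the Argonaute recruits deadenylases and decapping factors that silence the matched mRNA. AGO2 is the human Argonaute best known for cutting its target, and it is also the enzyme that siRNAs such as those transfected here use.

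DGCR8 carries microRNA hairpins inside its own mRNA, and the Microprocessor is known to cut its partner's transcript there. The mature RNAs of those hairpins are shown because they lie within a message whose decay is described below. Both MIR3618 and MIR1306 fall in exon 2 of the canonical DGCR8 transcript on the plus strand. miR-3618 (chr22:20085797-20085818) overlaps the untranslated part and both arms of miR-1306 (chr22:20086072-20086093 and chr22:20086112-20086129) the coding part, in GRCh38 coordinates with sequences from RefSeq (GRCh38.p14). Capitals mark the seed, bases 2 to 8 counted from the 5′ end, and the 3 seeds differ.
hsa-miR-3618: uGUCUACAuuaaugaaaagagc
hsa-miR-1306-5p: cCACCUCCccugcaaacgucca
hsa-miR-1306-3p: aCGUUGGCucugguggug
The rows of MIR3618 and MIR1306 held 0 reads in all 24 libraries. MicroRNAs were not measured by these libraries of polyadenylated RNA, and how reads shared between a hairpin and its host were counted is not given in the sources used here.

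The 3′ untranslated regions (3′UTRs) of the list run from 941 bases in DROSHA to 16758 bases in AGO3, against a median of 1326 bases over 11372 tested genes with one. AGO1, AGO2, AGO3 and TNRC6B, with 10928, 11891, 16758 and 12570 bases, had longer 3′UTRs than 99.2% to 99.9% of those genes. The pentamer ATTTA, the core of AU-rich elements that many unstable mRNAs carry, was searched on the transcript strand with overlapping matches counted. DICER1 held 17 copies in 4273 bases, against a median of 9 in 1243 genes of like length (from 0.8 times to 1/0.8 times as long), of which 98.4% held at least 1. DGCR8 held 0 copies in 1767 bases, where 88.2% of 1751 genes of like length held at least 1. TNRC6A, TNRC6B and TNRC6C held 5, 20 and 6, against medians of 5, 28 and 9. The 30-base windows with the most copies in the 3′UTRs of TNRC6B (chr22:40323524-40323553, plus strand) and DICER1 (chr14:95089244-95089273, minus strand) are shown, each with the pentamers in capitals, as the long-tailed GW182 member with a short half-life and the member with the densest pentamers.
TNRC6B: tacacataccATTTAaATTTAaacacaaaa
DICER1: tctgtgATTTAggtcattaATTTAgataaa
These matches are a description of the sequence, and their part in decay was not tested.

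Libraries held 31843248 to 74252042 gene reads, and each member had between 357 reads (lowest library of TNRC6C) and 19574 reads (highest library of DICER1). The targeted mRNAs were checked first at 0 h, in CPM with TMM scaling. IGF2BP1 was at 620 and 632 CPM in siControl and 130 and 134 CPM in siIGF2BP1. IGF2BP2 went from 169 and 176 to 45.5 and 44.7 CPM in siIGF2BP2, and IGF2BP3 from 102 and 98.9 to 36.01 and 35.1 CPM in siIGF2BP3. The 0 h libraries thus matched their siRNA labels. Time and replicate labels are not covered by this check. The 8 hepatocyte and fetal liver markers were present in every library (TTR lowest, 34.7 to 85.9 CPM), while the markers of other cells were low. The leukocyte marker PTPRC was at 0 to 0.0162 CPM, DCN at 0 to 0.0180, COL1A2 at 0 to 0.0269, COL1A1 at 0.0269 to 0.384 and the endothelial marker PECAM1 at 0.508 to 1.41 CPM.

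In siControl cells at 0 h, XPO5 was the most abundant member per length, at 16.3 ± 0.192 CPM per kb of exon (SD, n = 2), followed by DROSHA at 13.6 ± 0.336 and DICER1 at 10.4 ± 0.494 on the same scale. TNRC6A followed at 9.92 ± 0.0700, about 1 SD of DICER1 below it, and their libraries did not overlap (9.87 and 9.97 against 10.8 and 10.1). AGO1 (6.97 ± 0.156), DGCR8 (6.77 ± 0.199) and AGO2 (6.32 ± 0.0977) formed a middle group in which the libraries of AGO1 and DGCR8 overlapped and those of AGO2 lay below both. TNRC6C (2.65 ± 0.0547), TNRC6B (2.25 ± 0.0866) and AGO3 (1.28 ± 0.0712) were the lowest. Among the paralogs, TNRC6A stood above TNRC6B and TNRC6C, and AGO1 and AGO2 above AGO3, by more than the spread of their libraries. Lengths are those of all annotated exons, and reads cover them only where the cells use them. Exons of XPO5, DGCR8, DICER1 and TNRC6C overlap those of POLR1C, TRMT2A, DICER1-AS1 and TMC6 on the opposite strand, which held 21613, 30074, 3383 and 41469 reads over all libraries. Whether counting used strand is not given in the sources used here, so the levels of these 4 members may hold reads of the other gene, or miss some. AGO1 (chromosome 1, 35869808 to 35930532) and AGO3 (chromosome 1, 35930718 to 36072500) are neighbours on the plus strand, with a gap of 185 bases between the annotated end of the first and the start of the second.

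The comparison of each knockdown with siControl at 0 h asks which members differed before transcription was blocked. Each knockdown changed 1 of the 10 mRNAs, and each a different one: AGO2 was higher in siIGF2BP1, TNRC6C lower in siIGF2BP2 and DICER1 lower in siIGF2BP3 (edgeR adjusted p under 0.05). Over all genes tested the share called was 15.9%, 12.1% and 9.39% in the same order, so 1 of 10 is close to the background. The median difference of the 10 was 0.02, -0.02 and -0.03 on the log2 scale, against 0.01, 0.02 and 0.00 (siIGF2BP1, siIGF2BP2, siIGF2BP3) for all genes. The 3 comparisons share the same 2 siControl libraries.

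AGO2 (ENSG00000123908.11, chromosome 8, 140520156 to 140635633, minus strand), the slicing Argonaute, was at 99.1 and 101 CPM in siControl, 121 and 120 CPM in siIGF2BP1, 106 and 102 CPM in siIGF2BP2 and 93.7 and 91.8 CPM in siIGF2BP3. Both siIGF2BP1 libraries lay above all others, and both siIGF2BP3 libraries below. The difference in siIGF2BP1 was 0.26 on the log2 scale (SE 0.0405, edgeR adjusted p = 6.56e-06), a level of 120% of siControl. Without any single library of either group it stayed between 0.25 and 0.28, with an adjusted p of at most 0.000854. In siIGF2BP3 the difference was -0.11 (SE 0.0411, adjusted p = 0.0879), which did not pass. In bulk RNA, fewer cells that express a gene and less of it per cell cannot be told apart.

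AGO1 and AGO3, the other Argonautes on the list, ranged from 94.1 to 107 CPM and from 24.5 to 28.2 CPM over the 8 libraries at 0 h. None of their 6 comparisons with siControl passed the test, with differences from -0.13 (AGO3 in siIGF2BP2, adjusted p = 0.267) to 0.09 (AGO1 in siIGF2BP1, adjusted p = 0.181).

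TNRC6C (ENSG00000078687.17, chromosome 17, 77958703 to 78108822, plus strand), the least read of the GW182 genes, was at 30.4 and 31.2 CPM in siControl, 31.6 and 33.5 CPM in siIGF2BP1, 23.9 and 24.04 CPM in siIGF2BP2 and 30.6 and 28.6 CPM in siIGF2BP3. The siIGF2BP2 libraries lay below all 6 others. The difference was -0.36 (SE 0.0795, edgeR adjusted p = 0.00127), a level of 77.8% of siControl, and it stayed between -0.38 and -0.34 without any single library of either group (adjusted p at most 0.0272). Its reads may not be fully separated from those of TMC6 (above).

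The other GW182 mRNAs went the other way in siIGF2BP2 without passing. TNRC6A was at 128 and 129 CPM in siControl and 144 and 138 CPM in siIGF2BP2 (difference 0.13, SE 0.0461, adjusted p = 0.059). TNRC6B was at 46.3 and 43.9 CPM in siControl and 51.2 and 49.9 CPM in siIGF2BP2 (0.17, SE 0.0594, adjusted p = 0.0631). TNRC6B was also at 50.03 and 50.1 CPM in siIGF2BP1 (0.15, SE 0.0597, adjusted p = 0.081). In both genes the siIGF2BP2 libraries lay above the siControl ones.

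DICER1 (ENSG00000100697.14, chromosome 14, 95086228 to 95158010, minus strand), the cytoplasmic dicing enzyme, was at 239 and 223 CPM in siControl and 206 and 213 CPM in siIGF2BP3, with 238 and 229 CPM in siIGF2BP1 and 221 and 226 CPM in siIGF2BP2. The siControl and siIGF2BP3 libraries did not overlap, but their gap was smaller than the distance between the siControl replicates. The difference was -0.14 (SE 0.0438, edgeR adjusted p = 0.036). It did not pass without siControl replicate 1 (-0.09, adjusted p = 0.465), without siIGF2BP3 replicate 1 (-0.12, adjusted p = 0.26) or without siIGF2BP3 replicate 2 (-0.16, adjusted p = 0.083).

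DROSHA, DGCR8 and XPO5, which act before DICER1, had no call against siControl in edgeR. DROSHA was at 104 and 107 CPM in siControl and 112 and 117 CPM in siIGF2BP3 (0.11, SE 0.0402, adjusted p = 0.0731). DESeq2 called this difference (adjusted p = 0.0369), as it did that of AGO2 in siIGF2BP3 (-0.11, adjusted p = 0.0406). DGCR8 stayed between 47.1 and 51.3 CPM and XPO5 between 132 and 144 CPM in the 8 libraries at 0 h. All of these values are relative to the sum of gene reads after TMM scaling. On the scale of ERCC synthetic RNA, which was added per amount of total RNA, none of the 3 calls passed: AGO2 in siIGF2BP1 was at 0.23 (edgeR adjusted p = 0.109), TNRC6C in siIGF2BP2 at -0.28 (adjusted p = 0.104) and DICER1 in siIGF2BP3 at -0.06 (adjusted p = 0.77). On that scale 1, 4 and 1 of the 10 members had an unadjusted p under 0.05 in siIGF2BP1, siIGF2BP2 and siIGF2BP3. Among the 13136 genes tested 1871, 2505 and 2063 did.

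**Figure D1:**
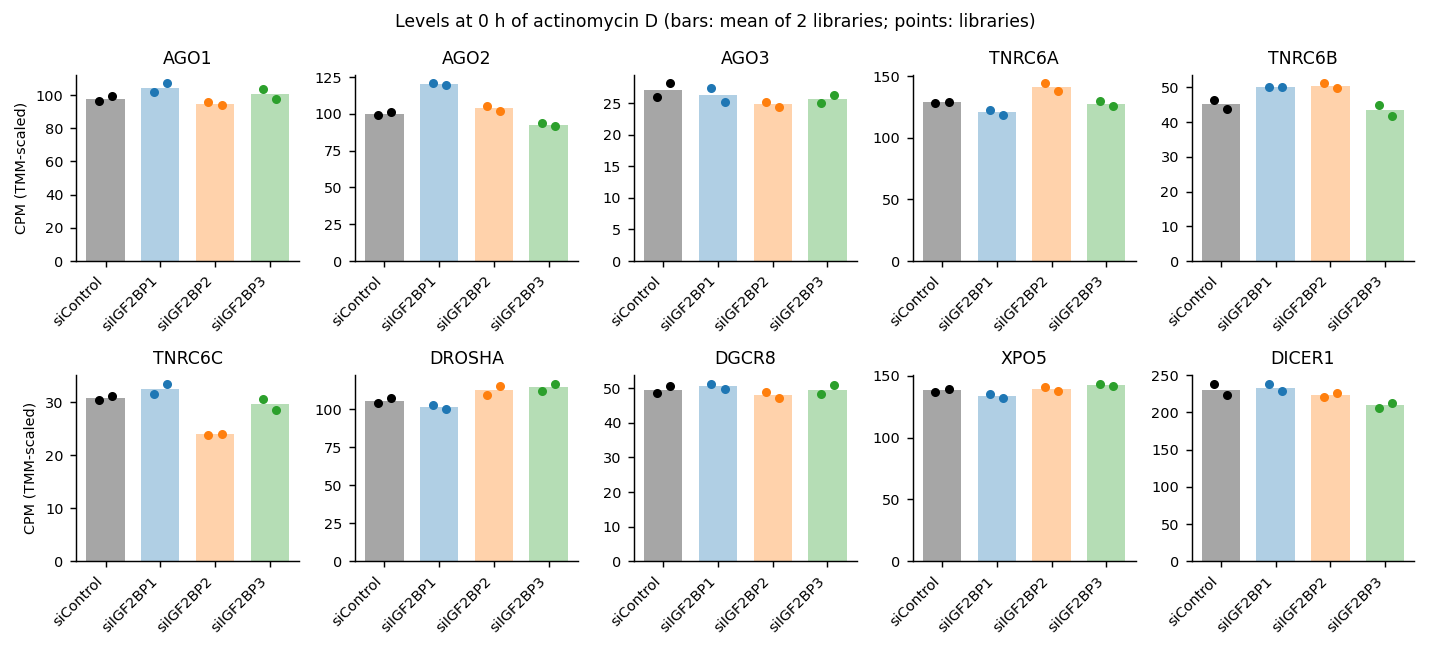
Level of each of the 10 mRNAs at 0 h in CPM (TMM-scaled, linear axis from 0), with bars for the mean of 2 libraries and points for the libraries of siControl, siIGF2BP1, siIGF2BP2 and siIGF2BP3. AGO2 stands highest in siIGF2BP1 (121 and 120 CPM), TNRC6C lowest in siIGF2BP2 (23.9 and 24.04 CPM), and XPO5 and DGCR8 are nearly level.

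The same comparisons were made at 3 and 6 h of actinomycin D, an addition chosen after the data were seen. AGO2 was higher in siIGF2BP1 at both times, by 0.26 (SE 0.0420, edgeR adjusted p = 1.24e-05) at 3 h and 0.35 (SE 0.0428, adjusted p = 6.29e-08) at 6 h. Its libraries were at 116 and 109 CPM against 93.6 and 94.3 CPM in siControl at 3 h, and at 97.4 and 101 CPM against 76.2 and 79.6 CPM at 6 h. The groups overlapped at neither time. AGO2 was lower in siIGF2BP3, by -0.16 (adjusted p = 0.00718) at 3 h and -0.14 (adjusted p = 0.0232) at 6 h, so the siIGF2BP3 libraries were again the lowest, at 84.0 and 84.2 and then 72.4 and 69.0 CPM.

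The GW182 genes continued to part in siIGF2BP2. TNRC6C was at -0.27 (adjusted p = 0.0326) and -0.39 (adjusted p = 0.00191) at 3 and 6 h. TNRC6A was at 0.22 (adjusted p = 0.00112) and 0.17 (adjusted p = 0.0101), and TNRC6B at 0.36 (adjusted p = 7.91e-05) and 0.45 (adjusted p = 2.48e-06). At 6 h TNRC6B was at 24.3 and 23.9 CPM in siControl and at 31.9 and 33.8 CPM in siIGF2BP2, while TNRC6C was at 16.4 and 15.6 CPM in siControl and 13.0 and 11.5 CPM in siIGF2BP2. Neither pair of groups overlapped. The growth of the TNRC6B difference over time was tested as a difference in decay, below, and did not pass.

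DICER1 was lower in siIGF2BP3 at 6 h (-0.19, adjusted p = 0.00244) but not at 3 h (-0.08, adjusted p = 0.235), and higher in siIGF2BP1 at 3 h alone (0.15, adjusted p = 0.0131). TNRC6C in siIGF2BP3 was at -0.26 at 6 h (adjusted p = 0.0493). At 3 h, siIGF2BP1 had 2 of 10 members called, siIGF2BP2 3 and siIGF2BP3 1, where all genes gave 20.9%, 17.0% and 16.0%. At 6 h the counts were 1, 3 and 3 of 10, against 24.3%, 18.7% and 18.5% of all genes. AGO1, AGO3, DROSHA, DGCR8 and XPO5 passed in none of the 9 comparisons with siControl in edgeR. DESeq2, which was run at 0 h and not at 3 or 6 h, called DROSHA in siIGF2BP3 (above).

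**Figure D2:**
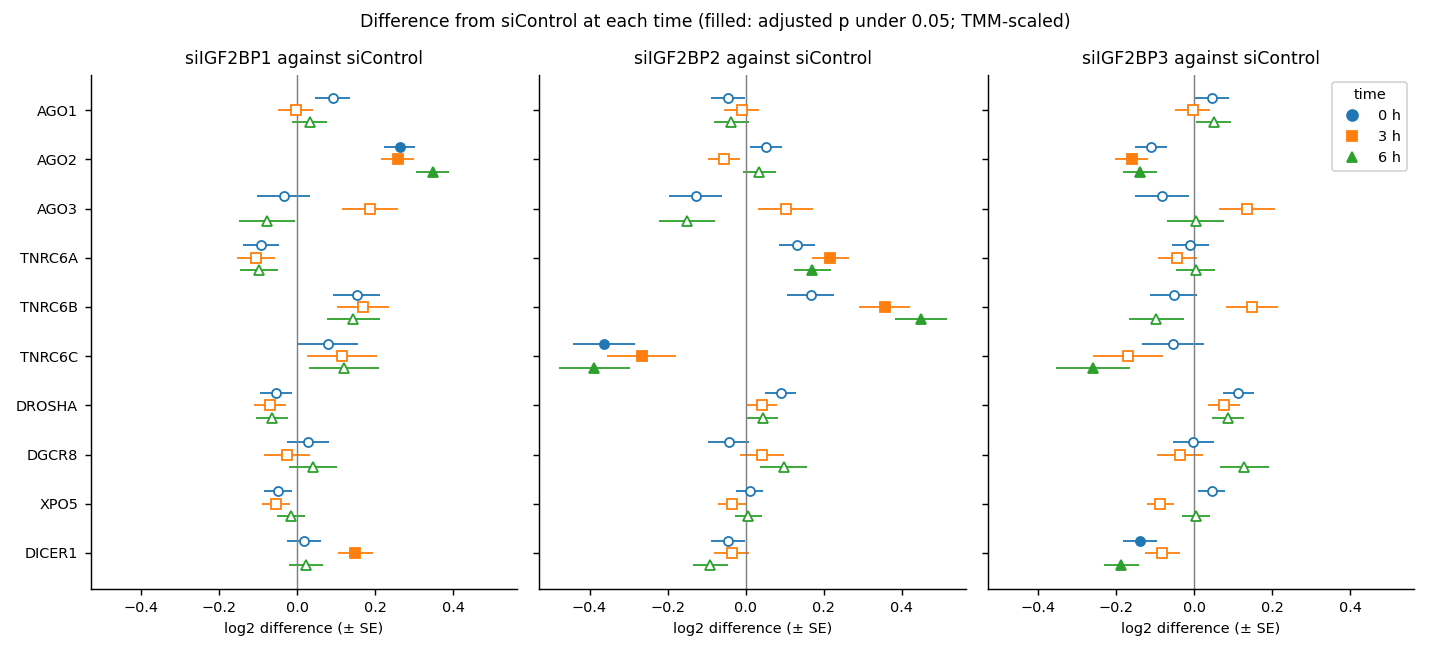
Difference from siControl (log2, TMM-scaled, with bars of 1 SE) of each member at 0, 3 and 6 h in siIGF2BP1, siIGF2BP2 and siIGF2BP3, filled where the edgeR adjusted p is under 0.05. AGO2 lies to the right at all 3 times in siIGF2BP1 (0.26, 0.26 and 0.35) and TNRC6C to the left at all 3 times in siIGF2BP2 (-0.36, -0.27 and -0.39).

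Direct comparison of the knockdowns at 0 h, whose differences do not use the siControl means, called more members. The siControl libraries still entered the count filter, the scaling and the shared estimate of the spread. Between siIGF2BP1 and siIGF2BP2 5 of 10 were called, against 18.7% of all genes, the largest being TNRC6C at 0.44 (siIGF2BP1 minus siIGF2BP2, SE 0.0803, edgeR adjusted p = 7.12e-05). Between siIGF2BP1 and siIGF2BP3 4 of 10 were called, against 14.3%, led by AGO2 at 0.37 (SE 0.0412, adjusted p = 1.29e-08). Between siIGF2BP2 and siIGF2BP3 3 of 10 were called, against 9.19%, with TNRC6C at -0.31 (SE 0.0808, adjusted p = 0.00937). With this TMM scaling AGO2 was called in all 3, in the order siIGF2BP1, siIGF2BP2, siIGF2BP3 from high to low. On the ERCC scale 3, 2 and 0 members passed. Of the 13136 genes tested, 238 were called higher and 1347 lower in the first comparison on that scale. In the second 98 were higher and 777 lower, and in the last 191 and 191. In the first comparison AGO2 went from 0.21 to 0.10 (adjusted p = 0.491) and AGO1 from 0.14 to 0.02 (adjusted p = 0.886). In the second TNRC6B went from 0.20 to 0.09 (adjusted p = 0.621) and DICER1 from 0.16 to 0.04 (adjusted p = 0.819). In the last AGO2, TNRC6B and TNRC6C stayed at 0.16, 0.22 and -0.31, with adjusted p of 0.542, 0.332 and 0.114. The last comparison had 0 calls without siIGF2BP2 replicate 1, 1 without siIGF2BP2 replicate 2 and 1 without siIGF2BP3 replicate 2. The first had 3 without siIGF2BP1 replicate 2 or siIGF2BP2 replicate 2, and the second 2 without siIGF2BP1 replicate 1, siIGF2BP1 replicate 2 or siIGF2BP3 replicate 2.

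Decay was then measured on the ERCC scale, where the level of a gene is its reads per ERCC read. All 10 members fell over 6 h in siControl, as did 80.3% of all genes tested (edgeR adjusted p under 0.05). They fell in siIGF2BP1, siIGF2BP2 and siIGF2BP3 as well, where 69.1%, 71.3% and 67.2% of all genes did. The median fitted change of the 10 over 6 h was -1.07 in siControl, against -0.88 for all genes. DROSHA, with the smallest fall, did not pass in siIGF2BP1 without replicate 1 at 0 h or either replicate at 6 h (adjusted p up to 0.108), in siIGF2BP2 without replicate 2 at 0 h or replicate 1 at 6 h (up to 0.104), or in siIGF2BP3 without replicate 2 at 0 h or at 6 h (up to 0.23). The fall is a statement about this scale: with TMM, which centres each library on its own genes and moves the siControl median of all genes from -0.88 to -0.02, the slopes of AGO1, DROSHA and XPO5 turned positive in every condition and that of DICER1 was at or slightly above 0.

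The GW182 mRNAs and DGCR8 were lost fastest. In siControl TNRC6C was at 40.7% and 36.1% of its 0 h mean after 3 h (2 libraries) and at 30.4% and 26.5% after 6 h. TNRC6B was at 40.3% and 44.4%, then 30.8% and 27.8%. TNRC6A was at 47.3% and 49.2%, then 40.9% and 36.7%. DGCR8 was at 45.8% and 46.2%, then 27.9% and 26.6%. In none of these 4 did the 3 h and 6 h libraries overlap.

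Among the other members AGO2 kept 43.4% and 41.7% of its 0 h level at 6 h, AGO3 53.8% and 53.3%, and DICER1 55.1% and 57.7%. AGO1 kept 72.0% and 68.4%, XPO5 73.3% and 68.6%, and DROSHA 78.4% and 74.9%. The first siControl library at 0 h was above the second on this scale for every member, at 102% to 110% against 90.3% to 97.5% of their mean.

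**Figure D3:**
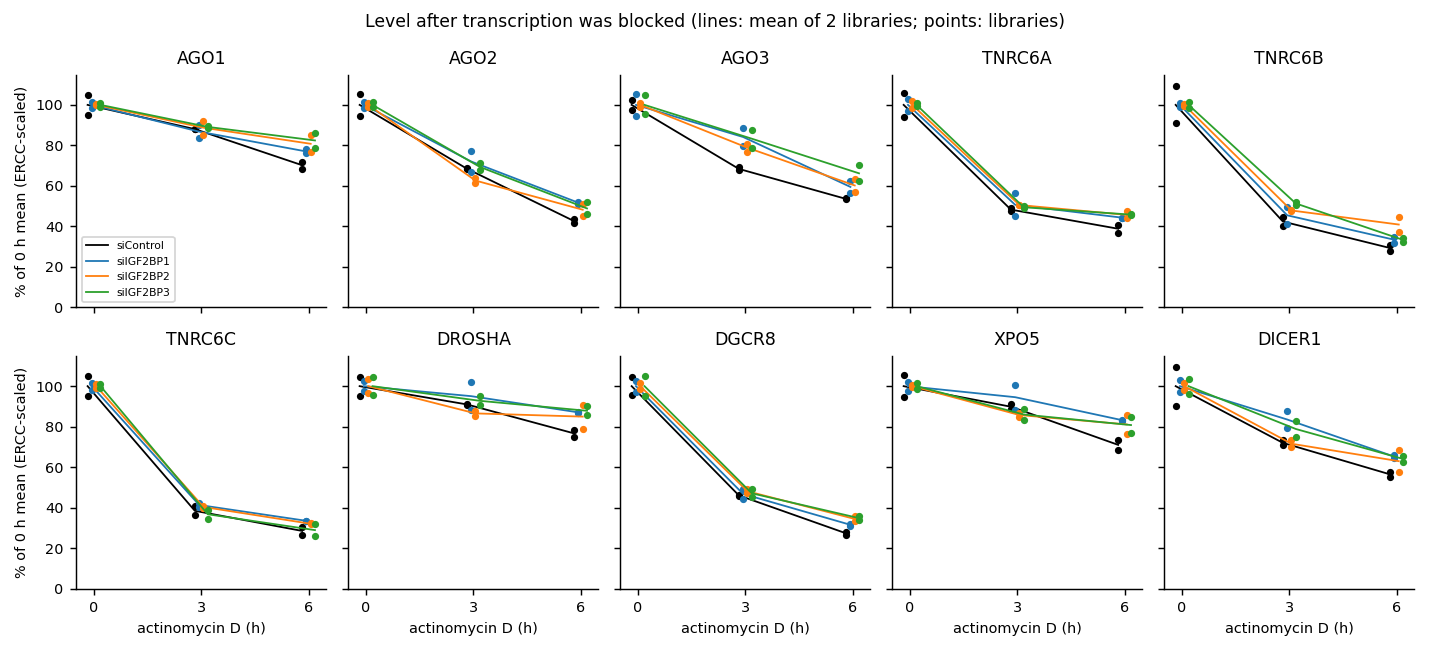
Level of each member at 0, 3 and 6 h of actinomycin D as a percent of its own 0 h mean in that condition (ERCC-scaled, linear axis from 0), with lines through the means of 2 libraries and points for the libraries, offset sideways by condition. TNRC6A, TNRC6B, TNRC6C and DGCR8 drop below 60% by 3 h in all 4 conditions, while AGO1, DROSHA and XPO5 stay above 65% at 6 h.

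Half-lives by the first-order equation of the study ordered the members as TNRC6C (2.62 h), TNRC6B (2.82 h), DGCR8 (2.92 h), TNRC6A (3.46 h), AGO2 (5.16 h), AGO3 (6.00 h), DICER1 (6.76 h), AGO1 (13.7 h), XPO5 (14.9 h) and DROSHA (18.3 h) in siControl. The median of the 10 was 5.58 h, against 6.25 h for the 11040 genes with a measurable fall. TNRC6C was longer lived than 18.4% of those genes and DROSHA than 81.7%. With 1 library left out in turn, TNRC6C ranged from 2.51 to 2.76 h, TNRC6B from 2.59 to 3.13 h and DGCR8 from 2.79 to 3.06 h, so the range of TNRC6B overlapped both of the others, which did not overlap each other. TNRC6A, at 3.23 to 3.74 h, lay above them. AGO2 (4.71 to 5.75 h), AGO3 (5.70 to 6.35 h) and DICER1 (5.51 to 9.01 h) overlapped in turn, as did AGO1 (11.1 to 18.1 h), XPO5 (11.6 to 21.6 h) and DROSHA (14.1 to 26.7 h). Among the Argonautes, AGO1 at 13.7 h stood apart from AGO2 and AGO3 at 5.16 and 6.00 h, while the GW182 members all fell between 2.62 and 3.46 h.

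Half-lives are set beside the 3′UTR features as a description, and no relation between them was tested. DGCR8 and XPO5, with 0 and 1 copies of ATTTA, had half-lives of 2.92 and 14.9 h. DICER1, with 3.98 copies per kb against 2.29 over all 3′UTRs, had one of 6.76 h. The 3 messages with the longest 3′UTRs, AGO3, TNRC6B and AGO2, were at 6.00, 2.82 and 5.16 h.

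In siIGF2BP1 the half-lives ran from 2.90 h (TNRC6C) to 34.7 h (DROSHA) with a median of 7.96 h over the list, in siIGF2BP2 from 2.81 h (TNRC6C) to 18.4 h (DROSHA and AGO1) with a median of 6.17 h, and in siIGF2BP3 from 2.56 h (TNRC6C) to 29.7 h (DROSHA) with a median of 7.39 h. Over the 10276, 11007 and 10201 genes with a measurable fall the medians were 6.93, 6.51 and 7.03 h in the same order. Genes without a fall, which these medians leave out, numbered 1829, 1165 and 1962, against 1138 in siControl. By the first-order equation TNRC6C was the shortest lived in every condition, and the GW182 genes and DGCR8 made up the 4 shortest in each. From the fitted slope DGCR8 was the shortest in siControl (3.196 h, TNRC6C 3.299 h) and siIGF2BP1 (3.585 h, TNRC6C 3.775 h). TNRC6C remained the shortest from the slope in siIGF2BP2 and siIGF2BP3. The long values were poorly fixed: DROSHA in siIGF2BP1 was at 48.9 h from the replicate 1 libraries and 26.1 h from the replicate 2 libraries, and at 82.6 h without the second 3 h library. XPO5 in siIGF2BP1 went from 28.1 to 48.4 h without that library, and DROSHA in siIGF2BP3 from 29.7 to 55.8 h without the second 0 h library.

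**Figure D4:**
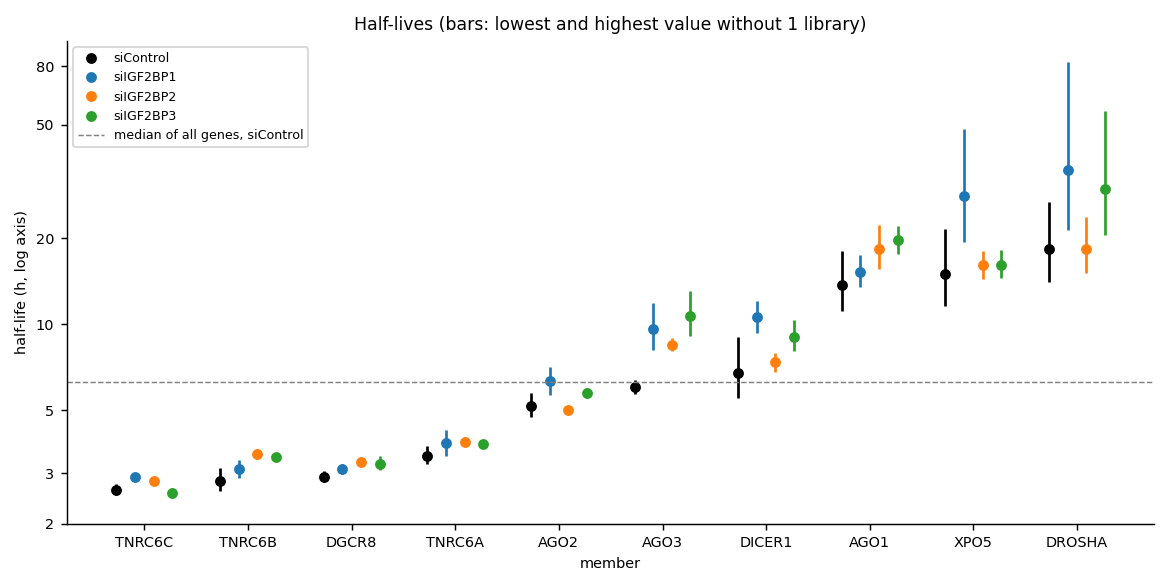
Half-life of each member (h, log axis) in siControl, siIGF2BP1, siIGF2BP2 and siIGF2BP3, with points for the value from all 6 libraries of a condition, bars from the lowest to the highest value when 1 library is left out, and a dashed line at the siControl median of all genes with a measurable fall (6.25 h). TNRC6C, TNRC6B, DGCR8 and TNRC6A lie below 4.5 h in all 4 conditions, and bars widen for AGO1, XPO5 and DROSHA.

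Whether a knockdown altered the decay of a member was tested as the difference of its slope from siControl. None of the 10 passed in any knockdown in edgeR, where all genes gave 0.0152% in siIGF2BP1, 0.0% in siIGF2BP2 and 0.0228% in siIGF2BP3. An unadjusted p under 0.05 was reached by 1 member in siIGF2BP1 (AGO2, 0.28 over 6 h), 1 in siIGF2BP2 (AGO1, 0.20) and 2 in siIGF2BP3 (AGO1, 0.23, and AGO3, 0.31), and in DESeq2 by 1, 0 and 2. Among the 13136 genes tested it was reached by 1436, 896 and 2113 in edgeR and by 1238, 737 and 1879 in DESeq2. All 30 differences were positive, a slower loss in the knockdown, with list medians of 0.20, 0.18 and 0.20. The medians of all genes were 0.19, 0.17 and 0.22, and with TMM scaling the list medians were 0.00, -0.01 and -0.03. On the TMM scale 5, 4 and 4 of the 10 were positive. The differences share the siControl libraries: without siControl 0 h replicate 1 the list medians were 0.09, 0.12 and 0.15, with 9, 9 and 8 of 10 positive and 0 with an unadjusted p under 0.05. Without siIGF2BP2 6 h replicate 2 the median in siIGF2BP2 was 0.09.

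The intervals of these differences, from the slope fit, were wide for the fast-decaying genes. TNRC6B in siIGF2BP2 had the largest, 0.48 over 6 h with an approximate 95% interval from -0.03 to 0.99 (edgeR adjusted p = 0.643). Its 6 h libraries were at 37.0% and 44.8% of the 0 h level against 30.8% and 27.8% in siControl. The difference was 0.25 without siIGF2BP2 6 h replicate 2 and 0.27 without siControl 0 h replicate 1 (adjusted p = 1.0 and 0.999), at most 0.64 without any other single library, and 0.28 with TMM scaling. From the change between 0 and 6 h alone, TNRC6B in siIGF2BP2 was also at 0.48 and did not pass (SE 0.139, edgeR adjusted p = 0.0699). Its SE in the slope fit was 0.260, so the width of the interval depended on the fit. In the slope fit TNRC6C in siIGF2BP3 had the smallest difference, 0.01, with an interval from -0.68 to 0.70, which leaves room for faster or slower loss. DGCR8 was at 0.20 (-0.21 to 0.62), 0.33 (-0.08 to 0.74) and 0.35 (-0.06 to 0.76) in siIGF2BP1, siIGF2BP2 and siIGF2BP3. For AGO1 in siIGF2BP3 the interval was 0.05 to 0.41 before adjustment (adjusted p = 0.287).

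Loss before and after 3 h was compared next, as an addition chosen after the data were seen. A constant decay rate gives equal log2 changes in both intervals. In siControl TNRC6C changed by -1.38 from 0 to 3 h and by -0.43 from 3 to 6 h, TNRC6B by -1.24 and -0.53, and TNRC6A by -1.05 and -0.31. All 3 lost more in the first interval, with differences of 0.95 (SE 0.199, edgeR adjusted p = 3.62e-05), 0.70 (SE 0.176, adjusted p = 0.000999) and 0.74 (SE 0.152, adjusted p = 2.69e-05). DGCR8 changed by -1.12 and -0.75 (difference 0.36, adjusted p = 0.178), and AGO2 by -0.55 and -0.69 (difference -0.14, adjusted p = 0.633). Neither was compared with the GW182 genes in a test.

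In siControl 3 of 10 members had a larger loss before 3 h, against 10.9% of all genes. The counts were 4 of 10 in siIGF2BP1, 4 in siIGF2BP2 and 3 in siIGF2BP3, against 10.8%, 17.8% and 11.3%. DGCR8 was among those called in each knockdown, at 0.53, 0.57 and 0.66 (adjusted p = 0.0258, 0.00661 and 0.00253). TNRC6A and TNRC6C were called in all 4 conditions. TNRC6B was called in siIGF2BP1 (0.69) and siIGF2BP2 (0.84) but not in siIGF2BP3, where it changed by -0.96 and then -0.62 (difference 0.34, adjusted p = 0.262). Whether these values of TNRC6B and DGCR8 differ from those in siControl was not tested. With TMM scaling the GW182 calls in siControl were kept, at 0.92, 0.66 and 0.69 for TNRC6C, TNRC6B and TNRC6A, and DGCR8 also passed (0.33, adjusted p = 0.011). TNRC6B in siIGF2BP3 again did not pass (0.21, adjusted p = 0.204), and the other calls of the knockdowns were kept, with DGCR8 at 0.45, 0.30 and 0.53 in siIGF2BP1, siIGF2BP2 and siIGF2BP3. On that scale some members passed in the other direction: XPO5 in siControl (-0.22, adjusted p = 0.00417) and siIGF2BP1 (-0.18, adjusted p = 0.0281), and AGO1 (-0.24, adjusted p = 0.0161) and AGO3 (-0.32, adjusted p = 0.043) in siIGF2BP2. An error in the ERCC total of a library moves every gene of it, which a fit for single genes does not take into account.

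**Figure D5:**
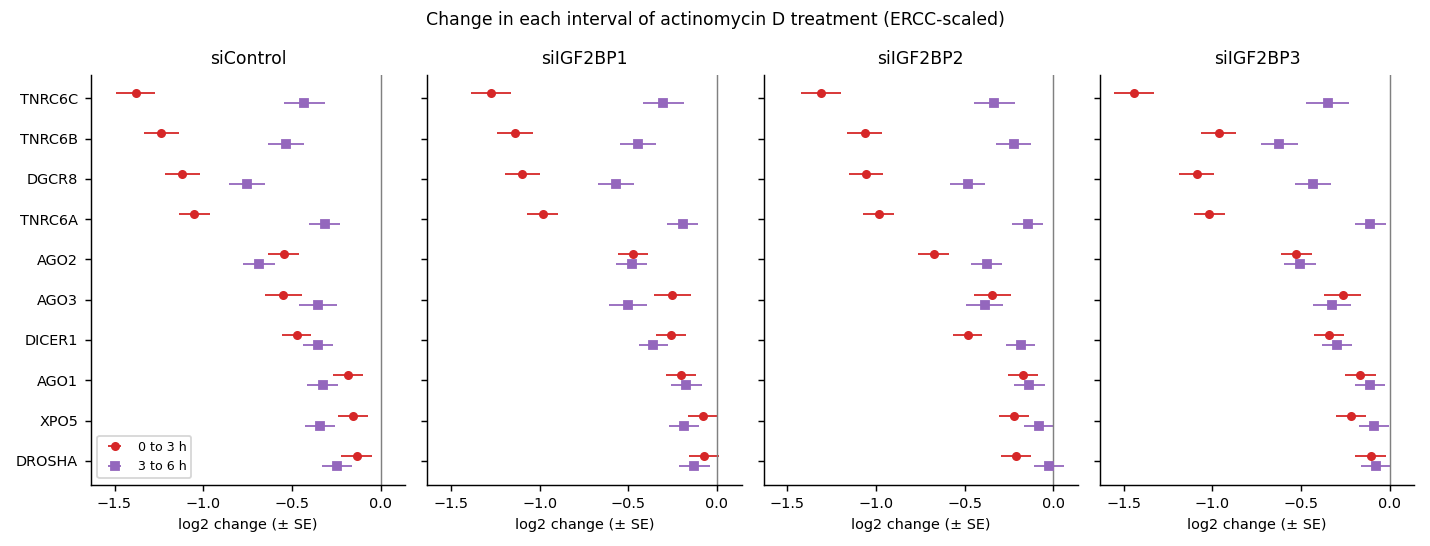
Change of each member from 0 to 3 h and from 3 to 6 h of actinomycin D (log2, ERCC-scaled, with bars of 1 SE) in the 4 conditions, ordered by half-life in siControl. The GW182 genes lie near or below -1 in the first interval and above -0.65 in the second, while AGO1, XPO5 and DROSHA stay within 0.35 of 0 in both.

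The wider pathway was taken from 6 lists with 72 genes, of which 63 were tested. At 0 h 13 rose and 3 fell after siIGF2BP1, 12 rose and 2 fell after siIGF2BP2, and 12 rose and 1 fell after siIGF2BP3, with medians of 0.05, 0.02 and 0.05 over the 63. Over all genes tested 9.43%, 6.65% and 4.93% rose and 6.5%, 5.47% and 4.47% fell in the same order, with medians of 0.01, 0.02 and 0.00. No test of a list was run. Over the silencing effectors (deadenylases, decapping factors and poly(A)-binding proteins), 6 of 23 rose in siIGF2BP1 and 0 fell, 3 rose and 1 fell in siIGF2BP2, and 5 rose and 1 fell in siIGF2BP3. Of the 14 genes for Argonaute partners and loading, 4, 5 and 3 rose and 3, 0 and 0 fell. Of 7 Microprocessor partners 1, 1 and 3 rose and 0, 1 and 0 fell, and of 4 export and dicing partners 2, 1 and 0 rose. Of 7 tested tailing and turnover genes 0, 2 and 1 rose, and none of the 8 tested host transcripts of microRNAs was called at 0 h.

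FMR1, an RNA-binding protein reported to work with the Argonaute complex, was at 55.7 and 54.3 CPM in siControl and at 88.5 and 90.7 CPM in siIGF2BP1, 71.8 and 70.4 CPM in siIGF2BP2 and 78.7 and 76.1 CPM in siIGF2BP3. It was higher in all 3 (0.70, 0.37 and 0.49, edgeR adjusted p at most 1.69e-07). PABPC4, a poly(A)-binding protein, went from 166 and 171 CPM to 229 and 231, 266 and 258, and 246 and 248 CPM (0.45, 0.64 and 0.55). Both rises were larger than that of any member at 0 h. DCP2, the decapping enzyme, fell from 47.5 and 43.95 CPM to 28.2 and 26.4 CPM in siIGF2BP2 (-0.74, SE 0.068, adjusted p = 1.16e-10). Smaller falls were those of TSN (-0.17) and TSNAX (-0.20), partners in the C3PO complex, in siIGF2BP1, DDX17 (-0.13), a Microprocessor helicase, in siIGF2BP2 and DCP1A (-0.16) in siIGF2BP3.

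Median half-lives in siControl differed between lists, but most of their ranges overlapped and no difference between lists was tested. The 3 GW182 members had a median of 2.82 h, the 22 silencing effectors with a measurable fall 4.08 h, the 7 tailing and turnover genes 7.28 h, the 4 processing members 10.9 h, the 4 export and dicing partners 11.7 h, the 13 Argonaute partners 11.9 h and the 6 Microprocessor partners 12.5 h. The 8 host transcripts had the lowest median, 1.28 h, which rests partly on genes with very few reads. Over the libraries MIR23AHG held 0 to 72 reads, MIR222HG 0 to 90, MIR17HG 1 to 285 and MIR29B2CHG 5 to 144. The other hosts held more in their lowest library: MIR34AHG had 25 to 1591 reads, MIR193BHG 50 to 342, DLEU2 237 to 645 and MIR4435-2HG 282 to 1065. Single genes ran from 1.495 to 65.7 h among the silencing effectors, from 3.23 to 20.3 h among the Microprocessor partners and from 0.584 to 9.47 h among the hosts. MIR34AHG, the host of miR-34a, had 1.253 h and the decapping cofactor DCP1B 1.495 h, while the helicase MOV10 showed almost no fall (a computed 2280 h). Over 6 h, 58 of the 63 genes fell in siControl and 51, 54 and 53 in siIGF2BP1, siIGF2BP2 and siIGF2BP3, where PABPC1 alone rose. Among all genes 80.3%, 69.1%, 71.3% and 67.2% fell. AGO4, the fourth Argonaute, was tested with the partners: it was at 12.4 and 12.7 CPM in siControl at 0 h, was not called in any knockdown (-0.20, -0.16 and -0.13, adjusted p 0.185, 0.34 and 0.534) and changed by -0.90 over 6 h in siControl, as AGO3 did (-0.90).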

How the data were processed

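RNA was measured in 24 libraries of HepG2 cells. According to the protocols, the authors added ERCC RNA according to the amount of total RNA, selected mRNA, built stranded libraries, sequenced single-end reads, trimmed them (Trimmomatic 0.39), aligned them to hg38 (HISAT2 2.1.0) and counted reads per GENCODE gene with HTSeq. The deposited values are raw read counts, not normalized. The counting settings for strand and shared reads are not given in the sources used here. HTSeq summary rows name no gene, held 13.6% to 17.1% of a library's total and were left out, as were 45 rows of pseudoautosomal Y copies. Identifiers were matched to symbols for 58207 rows, and 469 had none. Gene models here are from GENCODE v44 (GRCh38), a later release than the one the methods name. Depth was 31843248 to 74252042 gene reads and 50889 to 119088 ERCC reads. Counts with PCR duplicates give counting error only.

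The 10 members, the lists and the tests were chosen with earlier results of these data known. All members are named. Of the pathway lists the text names at most the 2 largest rises and 2 largest falls per comparison with an adjusted p under 0.05 and a mean CPM of at least 5, and the shortest and longest half-lives. AGO4 was named in addition, as the remaining Argonaute. edgeR 4.0.16 (R 4.3.3) quasi-likelihood tests, two-sided, were run on the counts of 13136 genes that reached 1 CPM in 2 or more libraries, with Benjamini-Hochberg adjustment over all of them and a threshold of 0.05. Levels at 0, 3 and 6 h used 12 group means and TMM scaling. Decay used an intercept and a slope for each of 4 conditions and ERCC totals as the scale, and a slope is the log2 change over 6 h. The half-life is ln2 divided by the mean of the decay rates from 0 to 3 h and from 0 to 6 h on ERCC-scaled means. Approximate intervals are normal intervals from the SE. The tests were run on simulated counts. The simulated ERCC totals carried no error, so the effect of such an error on the decay tests was not covered. Alternatives were DESeq2 1.42.0, other scalings, no count filter, fits of only the groups compared, a replicate block and fits without each library. Sequences and word counts were read with Python 3.11.15 from RefSeq and GENCODE tables. Replicates were not copies of each other: between them chi-square values were 3.24 to 8.51 per degree of freedom.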

Additional observations from a re-analysis of the deposited data

Results flagged for a closer look

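The effects of the 3 knockdowns at 0 h were compared with each other directly (edgeR, TMM scaling), and 12 differences of members passed an adjusted p of 0.05. As siIGF2BP1 minus siIGF2BP2, TNRC6C was at 0.44, AGO2 at 0.21 (adjusted p = 0.000161), AGO1 at 0.14 (adjusted p = 0.0275), TNRC6A at -0.22 (adjusted p = 0.000421) and DROSHA at -0.14 (adjusted p = 0.00933). As siIGF2BP1 minus siIGF2BP3, AGO2 was at 0.37, TNRC6B at 0.20 (adjusted p = 0.018), DICER1 at 0.16 (adjusted p = 0.0121) and DROSHA at -0.17 (adjusted p = 0.00336). As siIGF2BP2 minus siIGF2BP3, TNRC6B was at 0.22 (adjusted p = 0.0142), AGO2 at 0.16 (adjusted p = 0.00681) and TNRC6C at -0.31. TNRC6A and TNRC6C thus differed in opposite directions between siIGF2BP1 and siIGF2BP2. Between siIGF2BP1 and siIGF2BP2, AGO1 did not pass without siIGF2BP1 replicate 2, siIGF2BP2 replicate 1 or siIGF2BP2 replicate 2 (adjusted p up to 0.261), nor DROSHA without siIGF2BP1 replicate 2 or siIGF2BP2 replicate 2 (up to 0.188). Between siIGF2BP1 and siIGF2BP3, TNRC6B did not pass without siIGF2BP1 replicate 1, siIGF2BP1 replicate 2 or siIGF2BP3 replicate 2 (up to 0.229), DICER1 without siIGF2BP1 replicate 1 or siIGF2BP3 replicate 1 (up to 0.164), nor DROSHA without siIGF2BP1 replicate 2 or siIGF2BP3 replicate 2 (up to 0.0804). Between siIGF2BP2 and siIGF2BP3, AGO2 did not pass without siIGF2BP2 replicate 1 or siIGF2BP3 replicate 2 (up to 0.14), TNRC6B without siIGF2BP2 replicate 1, siIGF2BP2 replicate 2 or siIGF2BP3 replicate 2 (up to 0.224), nor TNRC6C without siIGF2BP2 replicate 1, siIGF2BP2 replicate 2 or siIGF2BP3 replicate 1 (up to 0.152).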

How the results depend on the processing

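Calls at 0 h against siControl numbered 1 member in each knockdown. With ERCC scaling 0 members were called in siIGF2BP1, 0 in siIGF2BP2 and 0 in siIGF2BP3. In a fit of only the groups compared 3, 3 and 2 were called, with DESeq2 3 in siIGF2BP3, and with the replicate block 2 in siIGF2BP2, where TNRC6A passed (0.13, adjusted p = 0.0429). Calls over all 13136 genes grew in these fits as well. In the main fit 1239, 874 and 647 genes rose and 854, 719 and 587 fell. With only the groups compared 1419, 1151 and 861 rose and 1297, 1232 and 839 fell. DESeq2 in siIGF2BP3 gave 761 up and 641 down, and the block in siIGF2BP2 gave 932 and 751. At 3 h 2 and 3 were called in siIGF2BP1 and siIGF2BP2, and at 6 h 3 in siIGF2BP2 and 3 in siIGF2BP3. Without single libraries the count in siIGF2BP3 went from 0 to 1. Between knockdowns, ERCC scaling gave 3, 2 and 0, and without single libraries the counts were 3 to 5 for siIGF2BP1 against siIGF2BP2, 2 to 3 for siIGF2BP1 against siIGF2BP3 and 0 to 2 for siIGF2BP2 against siIGF2BP3. The comparisons at 3 and 6 h were chosen after seeing the data. With the block TNRC6A also passed between siIGF2BP2 and siIGF2BP3 (0.14, adjusted p = 0.0343), and it changed no other call. Differences between replicates on the TMM scale correlated at -0.0415 to 0.103 over 66 pairs of groups. These correlations gave no sign that the replicate numbers pair the samples. They cannot exclude pairing, because the scaling removes shifts of whole libraries and noise of low genes enters. By the study's protocol each transfected plate was re-seeded into smaller plates before actinomycin D. Time points of a replicate would thus share a transfection, and the main fits treated them as independent.

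Slopes over 6 h turned positive with TMM scaling for AGO1 (0.36, 0.30, 0.37 and 0.36 in siControl, siIGF2BP1, siIGF2BP2 and siIGF2BP3), DROSHA (0.48, 0.47, 0.44 and 0.46), XPO5 (0.37, 0.41, 0.37 and 0.33), DICER1 (0.05, 0.06, 0.00 and 0.00) and, in siIGF2BP3, AGO3 (0.05). With library-size scaling the same held for DROSHA (0.16, 0.17, 0.16 and 0.17), XPO5 (0.05, 0.11, 0.10 and 0.04) and AGO1 in siControl, siIGF2BP2 and siIGF2BP3 (0.04, 0.09 and 0.07). Both scales centre each library on its own reads. The median half-life of the members moved from 5.58 to 37.2 h in siControl and from 6.17 to 597 h in siIGF2BP2 with TMM, and gave no value in the others, where at least 5 members had no fall. From the slope it was 7.15 h in siIGF2BP1 and 6.95 h in siIGF2BP2, from the change at 6 h alone 7.15 and 6.95 h, and from the replicate 1 libraries alone (chosen after seeing the data) 7.67 h in siIGF2BP1. Without single libraries it ran from 5.11 to 6.05 h in siControl, 7.10 to 9.23 h in siIGF2BP1, 5.81 to 6.55 h in siIGF2BP2 and 6.83 to 8.10 h in siIGF2BP3. Differences in decay stayed at 0 called members in every alternative. Half-lives themselves were not tested against each other. With 2 libraries a group and ERCC totals that differ between replicates, the ranges above show how far a single library moves a value. They are not a limit of detection.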
